A study of Mus musculus with 8 samples.

Results

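miR-126-3p and miR-126-5p are the strands cut from the opposite arms of the miR-126 hairpin, and were measured here in mouse lung. Both were found by their exact names among the systematic names of the array, and they are 2 of its 650 microRNAs (miRNAs), of which 611 are mouse and 39 are herpesvirus miRNAs. Lung RNA came from female C57BL/6 mice (dams), all pregnant when they were exposed. The Printex 90 mice received this carbon black nanoparticle in nanopure water by instillation into the trachea, in 4 doses of 0.067 mg during gestation, on day 7, day 10, day 15 and day 18 (0.268 mg in all). The vehicle control mice received the water alone, and both groups were killed at weaning, 26 to 27 days after exposure. Each group had 4 arrays with a single colour (Cy3). Whether every array held RNA of its own animal is not stated in the labels, so the spread behind the p-values may be technical. All 8 arrays shared 1 slide and 1 scan time. Row 1 of the slide held all controls and row 2 all Printex 90 samples, so slide row and exposure cannot be told apart.

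A miRNA hairpin is cut into a duplex of 2 short strands, and the strand loaded into an Argonaute protein guides the repression of messenger RNAs that pair with its seed (bases 2 to 8). The miR-126 hairpin lies in an intron of Egfl7, a gene of endothelial cells, and its strands are markers of the vessel lining, which makes up much of the lung. miR-126-3p is known to strengthen vascular endothelial growth factor signalling by repressing Spred1 and Pik3r2, and miR-126-5p to repress Dlk1 and so support the renewal of endothelial cells.

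The array's name without a letter corresponds to Mir126a in the RefSeq annotation, whose older names include mmu-mir-126, and 1 of the 2 members (miR-126a-3p) had an entry in the RefSeq table of mature sequences. The mature strand (GRCm38.p6, chr2:26591402-26591423, plus strand) is shown because its seed, in capitals, sets its targets. The hairpin (GRCm38.p6, chr2:26591357-26591429, plus strand) is shown because it holds both arms, and its capitals mark the 3p strand.
miR-126a-3p: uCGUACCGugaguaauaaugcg
Mir126a hairpin: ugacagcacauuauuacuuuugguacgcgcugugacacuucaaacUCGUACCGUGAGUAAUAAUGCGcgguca
The mature strand has 22 bases, 10 of them G or C, and fills bases 46 to 67 of the 73 of the hairpin. The hairpin lies within the span of Egfl7 in that annotation. The seed CGUACCG belonged to 1 of the 1738 mature mouse miRNAs in the table, miR-126a-3p itself. miR-126a-5p is named only.

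Both strands were measured well above background on every array. The array held 40 spots for them, 20 per strand from 2 probes, and 37 to 40 of these were kept on each array after spots with outlier flags were left out. All 307 spots kept over the 8 arrays were well above background, and 0 were saturated: the brightest read 19663 intensity units. Detected mouse miRNAs numbered 248 to 283 on each array and 240 on all 8. The 75th percentile of an array over these 240 served to scale it and ran from 580.8 to 804.7 intensity units. Signals below are relative to it. The brightness of a probe depends on the probe as well as on the RNA, so the level of the 3p strand is not set against that of the 5p strand.

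The signal of miR-126-3p (mmu-miR-126-3p on the array) was 41.7, 36.7, 42.3 and 41.7 on vehicle control replicates 1 to 4. On Printex 90 replicates 1 to 4 it was 33.9, 39.8, 41.7 and 36.3. Printex 90 replicates 1 and 4 lay below every control, replicates 2 and 3 lay within the control range, and the groups overlapped. The means were 37.9 ± 3.53 after Printex 90 and 40.6 ± 2.62 in controls (SD, n = 4 each), a 0.933-fold difference with a 95% interval of 0.820 to 1.06. The log2 difference was -0.10 (SE 0.079, limma adjusted p = 0.754), so miR-126-3p did not pass the test. It was -0.05 without Printex 90 replicate 1 and -0.17 without scaling between arrays, and did not pass in either case (limma adjusted p = 0.861 and 0.630).

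The signal of miR-126-5p (mmu-miR-126-5p on the array) was 0.643, 0.600, 0.684 and 0.698 on vehicle control replicates 1 to 4. On Printex 90 replicates 1 to 4 it was 0.492, 0.702, 0.572 and 0.530. Here 3 of the 4 Printex 90 arrays lay below every control, while replicate 2 was the highest of all 8, so the groups overlapped. The means were 0.574 ± 0.091 after Printex 90 and 0.656 ± 0.0442 in controls (SD, n = 4 each), a 0.868-fold difference with a 95% interval of 0.722 to 1.04. The log2 difference was -0.20 (SE 0.11, limma adjusted p = 0.706), and this strand did not pass the test either. The log2 difference was -0.13 without Printex 90 replicate 1 (limma adjusted p = 0.698) and -0.30 without Printex 90 replicate 2 (limma adjusted p = 0.609). With normexp background correction, which adds an offset of 50 intensity units, it was -0.10 (limma adjusted p = 0.778). That offset exceeds the signal of the dimmer probe of this strand, A_54_P4367 (29.2 to 47.3 units), and by itself narrows differences of dim signals.

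**Figure D1:**
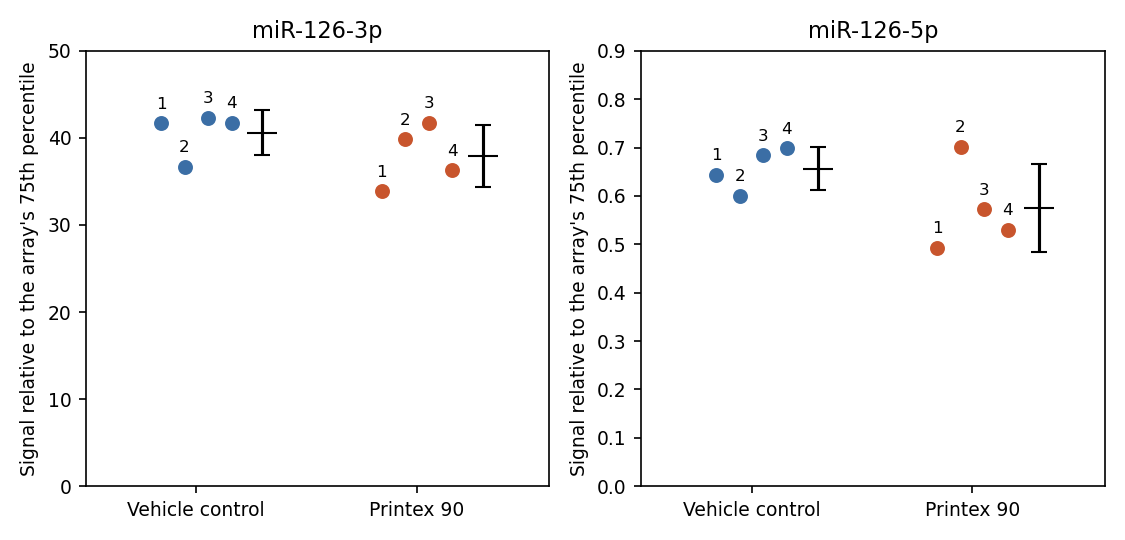
Signal of miR-126-3p (left) and miR-126-5p (right) on each array, relative to the array's 75th percentile. Points are arrays with their replicate number, and bars to the right of each group are the mean and SD of 4 arrays. Printex 90 replicate 1 is the lowest array for both strands, and Printex 90 replicate 2 is the highest for miR-126-5p.

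Of the 268 mouse miRNAs tested (detected on at least 4 arrays), 0 (0%) passed limma at an adjusted p of 0.05, while 15 did so at an unadjusted p of 0.05. These counts depended on single arrays: without Printex 90 replicate 3 they were 3 and 29, and without Printex 90 replicate 4 they were 0 and 8. The 3 were miR-135b, miR-146b and miR-21, all higher after Printex 90 (log2 difference 1.70, 0.99 and 0.55, limma adjusted p = 0.00917, 0.017 and 0.017), and neither miR-126 strand was among them. Both strands had a log2 difference below 0, as did 65.7% of all tested miRNAs, whose median was -0.05. The 2 strands held places 86 and 33 in the order of p-values, from the smallest. Groups that did not overlap were seen in 0.373% of the tested miRNAs with Printex 90 lower and in 1.12% with Printex 90 higher, and neither strand was among them. Neither strand passed, and in whole lung a change in endothelial cell number could not be told apart from one in miR-126 per cell.

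The direction of both strands turned in the authors' deposited table, which holds log2 values after quantile normalization. There the log2 difference, fitted here with limma, was 0.07 for miR-126-3p and 0.08 for miR-126-5p (limma adjusted p = 0.897 each). The authors' deposited table lists miR-126-3p at the same value, 13.68, on 6 of 8 arrays, since quantile normalization gives a fixed value to each rank and the middle spots of this strand held the same ranks on those arrays. It was lower on vehicle control replicate 1 (13.35) and on Printex 90 replicate 4 (13.63). The positive difference of miR-126-3p there thus came from that single control array. miR-126-3p held the highest value of the authors' deposited table on 7 of 8 arrays, the exception being vehicle control replicate 1. For each strand, the spots of 1 probe were all dimmer than the spots of the other on 8 of 8 arrays. The value in the authors' deposited table, a median over 20 spots, is then the midpoint of 2 spots: the brightest of the dim probe and the dimmest of the bright probe. The gap between those 2 spots was wider for miR-126-5p. For miR-126-5p on Printex 90 replicate 2 they were at 6.39 and 8.81, and the authors' deposited table gives 7.60. For miR-126-3p on the same array they were at 13.58 and 13.78. For miR-126-5p on vehicle control replicate 4 they were at 6.44 and 7.70, and the authors' deposited table gives 7.07, its lowest value for this strand. The median of the bright 5p probe's spots there (8.88) was the highest of the controls.

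**Figure D2:**
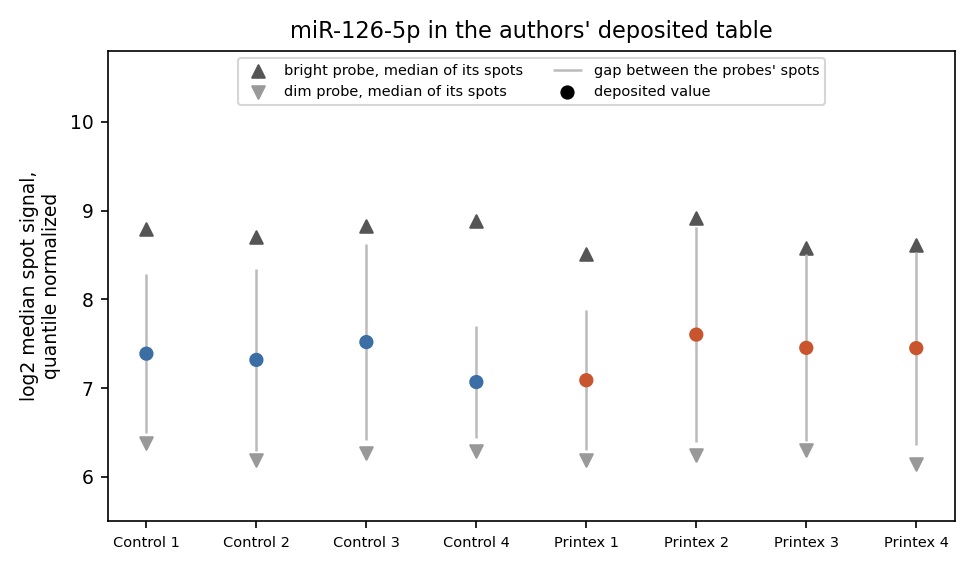
miR-126-5p in the authors' deposited table (circles, blue for vehicle control and orange for Printex 90), with the median of each probe's spots (triangles) and the gap between the probes' spots (lines), all as log2 median spot signal after quantile normalization. Every deposited value sits in the middle of the gap, from 7.07 to 7.60, away from both probes.

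The 2 probes of the 3p strand moved together from array to array, and the 2 probes of the 5p strand less so. The log2 ratio of the 3p probes had an SD within groups of 0.018, while that of the 5p probes had an SD of 0.25. Over the 8 arrays the ratio of the 5p probes (A_54_P1035 over A_54_P4367), set to 1 at the control mean, was lowest on Printex 90 replicate 1 (0.795) and highest on vehicle control replicate 4 (1.21). The same index of the 3p probes stayed between 0.990 and 1.02. Replicate spots of a probe on an array had a median coefficient of variation of 3.86% and 4.87% for the 3p probes, and of 6.53% and 11.0% for A_54_P1035 and A_54_P4367. A_54_P4367 had a relative signal of 0.0421 to 0.0683, and the 5th percentile of the signals of detected miRNAs was 0.0388.

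Each of the 4 probes had a log2 difference below 0. It was -0.09 and -0.11 for the 3p probes, and -0.20 for both A_54_P1035 and A_54_P4367. The order of the arrays was not shared by the 5p probes: Printex 90 replicate 2 was the highest array in A_54_P1035 (0.648, next 0.646 on vehicle control replicate 4), whereas all 4 Printex 90 arrays lay below the control mean in A_54_P4367. None of the 4 separated the groups. Probes of a strand share their target and are not replicates.

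The strand ratio asks whether the strands changed unequally, and does not depend on the scaling of an array by a constant. Set to 1 at the control mean of the log2 ratios, the 3p to 5p ratio was 1.05, 0.989, 1.00 and 0.966 on vehicle control replicates 1 to 4. On Printex 90 replicates 1 to 4 it was 1.11, 0.918, 1.18 and 1.11. Printex 90 replicates 1, 3 and 4 lay above every control, and replicate 2 lay below every control. The Printex 90 mean was 1.08 ± 0.113 against 1.00 ± 0.0345 in controls (SD, n = 4 each). The log2 difference of 0.10 did not exceed the spread between arrays (exact permutation p = 0.257, 2-sided, over 70 assignments, where 0.0286 is the smallest possible). It was 0.042 with normexp and 0.16 with quantile normalization (exact permutation p = 0.457 and 0.229, 2-sided). The normexp offset by itself narrows the differences of the dim 5p signal, and so affects the ratio.

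That result depends on Printex 90 replicate 2. Without it, the log2 difference was 0.18 and the 3 remaining arrays lay above all 4 controls (2-sided exact permutation p = 0.0286, which is the lowest possible for 4 arrays against 3). Leaving out any 1 of the other 7 arrays gave a p that did not pass, and without Printex 90 replicate 3 the difference was 0.058 (exact permutation p = 0.486, 2-sided). The error of the log2 ratio from replicate spots was between 0.015 and 0.080 per array, against an SD between arrays of 0.16 after Printex 90 and 0.049 in controls. With 1 probe per strand, the 4 log2 differences ran from 0.09 to 0.11, and their exact permutation p from 0.257 to 0.486, 2-sided. With A_54_P1035 as the 5p probe, Printex 90 replicate 2 had the lowest ratio of all arrays (index 0.916 and 0.896 with the 2 probes of the 3p strand). With A_54_P4367 the lowest was vehicle control replicate 1 (0.880 and 0.881), and Printex 90 replicate 2 lay at 1.08 and 1.06.

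**Figure D3:**
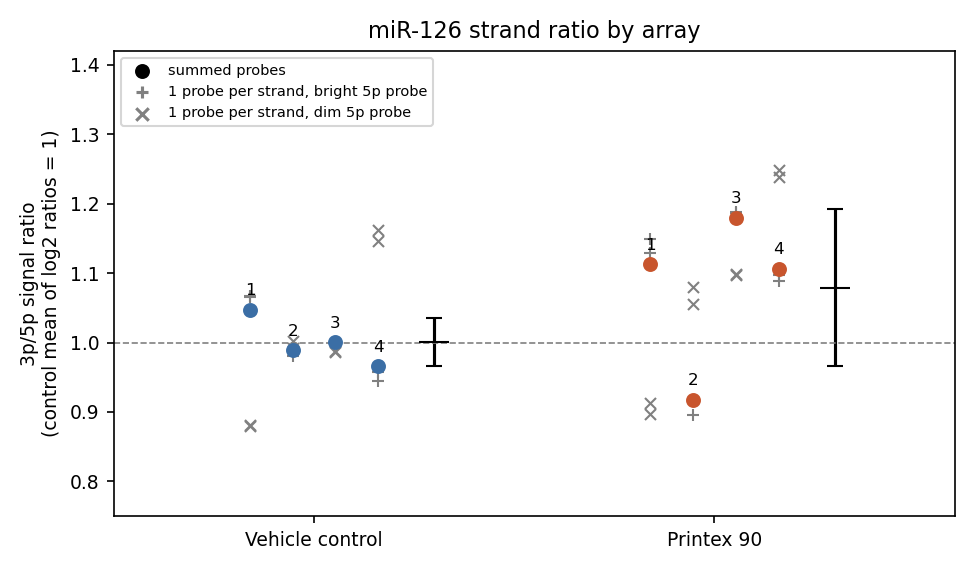
The miR-126 3p to 5p signal ratio on each array, set to 1 (dashed line) at the control mean of the log2 ratios. Circles are the summed probes with replicate numbers, crosses the ratios of 1 probe per strand, and bars the mean and SD of 4 arrays. Printex 90 replicates 1, 3 and 4 are above the controls and replicate 2 is below them, and the arrays take a different order with the dim 5p probe.

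The strand ratio of miR-126 was neither the steadiest nor the least steady among the hairpins with both strands measured. Of 25 mouse pairs detected on all 8 arrays, miR-126 held place 11 from the steadiest, with an SD of the log2 ratio within groups of 0.12. The steadiest were miR-30e (0.032) and miR-30a (0.032), and the least steady were miR-15a (0.23) and miR-582 (0.26). miR-126 had the highest summed mean log2 signal of the 25 (4.58, next 2.75 for miR-30a). The 5 pairs nearest to it in summed signal were therefore all dimmer in sum. Their SDs ran from 0.032 (miR-30a) to 0.22 (let-7d), with miR-199a at 0.056, miR-142 at 0.11 and let-7b at 0.14. These SDs are descriptions over the same 8 arrays. The part of the brightness and number of the probes in the spread of a ratio was not tested. Fitted over the 25 pairs, the miR-126 ratio had a limma adjusted p of 0.446 (95% interval of the log2 difference -0.07 to 0.28). 0% of the pairs passed, and 2 had an unadjusted p under 0.05, miR-744 (log2 difference -0.15) and miR-7a (0.23), each with a limma adjusted p of 0.312.

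**Figure D4:**
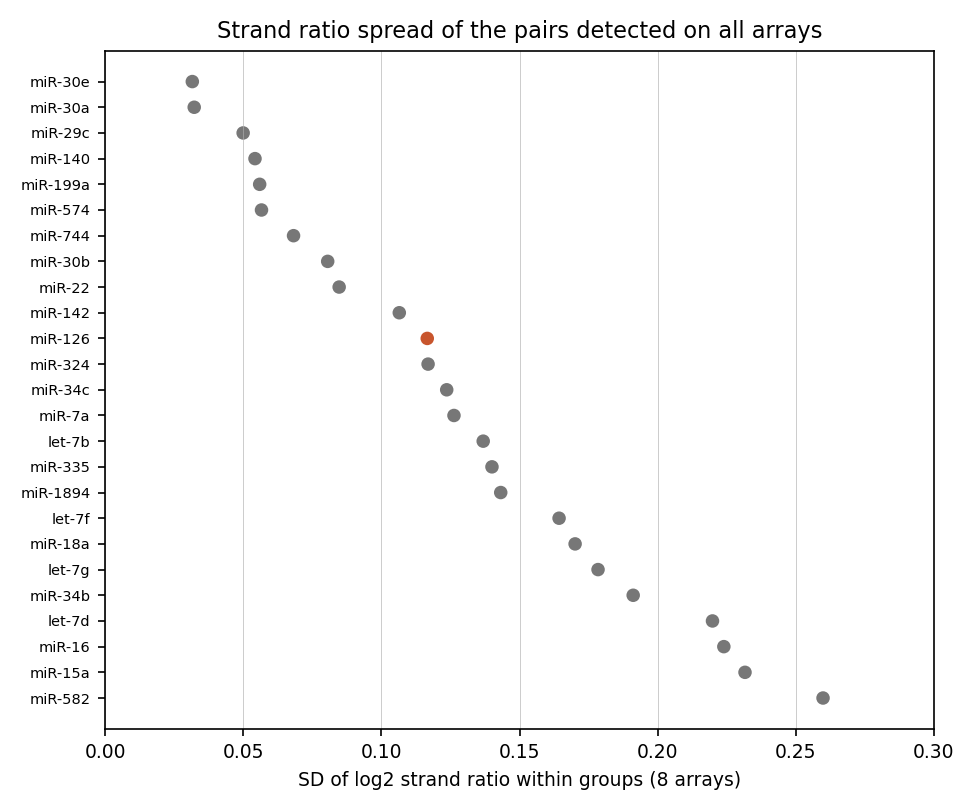
SD within groups of the log2 strand ratio over 8 arrays, for each of the 25 mouse pairs with both strands detected on all arrays, in order of SD. miR-126 (orange) is at 0.12, between miR-142 and miR-324, and the pairs run from 0.032 to 0.26.

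Over the 8 arrays the strands were positively correlated, and the relation did not pass after adjustment. Pearson's r between the log2 signals was 0.791 (exact permutation p = 0.0242, 2-sided, adjusted p = 0.0967 over the 4 relations computed), and Spearman's rho was 0.548 (exact permutation p = 0.171, adjusted p = 0.288). Without the 2 arrays farthest from the median of miR-126-3p, Printex 90 replicates 1 and 4, r was 0.297 over 6 arrays (exact permutation p = 0.617). Leaving out the extreme arrays narrows the range of miR-126-3p, which can by itself lower r. Without Printex 90 replicate 1 alone r was 0.617 (exact permutation p = 0.150), and without Printex 90 replicate 4 alone it was 0.755 (exact permutation p = 0.0496). Without vehicle control replicate 3 it was 0.761 (p = 0.0591, exact) and without vehicle control replicate 4 it was 0.766 (p = 0.0552, exact). With 4 arrays in a group, no correlation within a group was computed. With each group centred on its mean, r was 0.731 (permutation p = 0.0352). That p came from reordering all 8 arrays across the groups, takes no account of the centring and is not exact.

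The other 3 relations were with the brightness of the array. The log2 75th percentile before scaling had an r of -0.623 with the strand ratio (exact permutation p = 0.0974, adjusted p = 0.195) and a rho of -0.690 (exact permutation p = 0.0694, adjusted p = 0.278). Without vehicle control replicate 4 and Printex 90 replicate 3, the arrays farthest from its median, r was -0.278 (exact permutation p = 0.607). It had an r of 0.178 with miR-126-3p (exact permutation p = 0.671, adjusted p = 0.671, rho -0.262, p = 0.536) and 0.506 with miR-126-5p (exact permutation p = 0.200, adjusted p = 0.267, rho 0.50, p = 0.216). Without the same arrays these were 0.278 (exact permutation p = 0.608) and 0.316 (exact permutation p = 0.482). The part of array brightness in the strand ratio was not tested further.

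The miRNAs whose log2 signal was most like that of miR-126-3p over the 8 arrays, among 239 others detected on all of them, were miR-30c (r = 0.982), miR-26b (0.969), miR-10a (0.954), miR-185 (0.952) and miR-30a* (0.947). miR-126-5p came at place 36. For miR-126-5p the closest were miR-24 (r = 0.902), miR-30b (0.899), miR-350 (0.895), miR-19b (0.887) and miR-193 (0.862), with miR-126-3p at place 11. The median r with all others was 0.149 for the 3p strand and 0.250 for the 5p strand. All of these values share the same arrays and the same scaling, and none is a test.

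The spread of the 3p strand was near the middle of the array, and that of the 5p strand above it. Within groups the SD of the log2 signal was 0.12 for miR-126-3p and 0.17 for miR-126-5p, against a median of 0.12 over the 240 miRNAs detected on all arrays. Of those 240, 130 had a larger SD than the 3p strand and 67 a larger SD than the 5p strand. From the lowest to the highest array, miR-126-3p spanned 1.25-fold and miR-126-5p 1.43-fold, where the median miRNA spanned 1.31-fold.

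Other miRNAs of endothelial cells and of vessel growth were 16 by name, all on the array and all tested. Their log2 differences were below 0 for 13 and above 0 for 3, where 65.7% of all tested miRNAs were below 0. The median of the list was -0.06 beside -0.05 over all tested miRNAs. 0 of the 16 passed the test, and in 0 of the 16 were the groups apart. Over all tested miRNAs 0% passed, and the groups were apart in 0.373% with Printex 90 lower and in 1.12% with Printex 90 higher. With normexp the median of the list was 0.0094 and that of all tested miRNAs was 0.036, so both lay above 0.

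miR-23 and miR-27 promote vessel sprouting, and miR-24 lies in the same clusters. miR-27b had the narrowest interval among these (2.60 ± 0.0681 after Printex 90, 2.72 ± 0.0763 in controls, log2 difference -0.06, SE 0.031). miR-23a (-0.11), miR-23b (-0.03), miR-24 (-0.09) and miR-27a (-0.11) lay on the same side of 0. Of the Hox-cluster miRNAs, miR-10a, which restrains inflammatory signalling in endothelium, differed by -0.08, and miR-10b by 0.02. miR-221 and miR-222, which repress the receptor KIT and limit sprouting, differed by -0.03 and -0.08. miR-92a, which represses vessel growth, differed by -0.04, miR-130a by -0.01, miR-100 by 0.001, and miR-218, which lies in Slit genes and represses Robo receptors, by -0.07. miR-503 had the lowest log2 difference of the list (-0.29, SE 0.16), with signals of 0.0695 ± 0.0147 after Printex 90 and 0.0843 ± 0.0107 in controls, and miR-322, which shares its transcript, differed by -0.12. miR-296-5p was detected on 5 arrays and differed by 0.03, and its lowest value in both groups was the floor set before log2 (0.0388). Each of the 16 had a limma adjusted p between 0.706 and 1.0.

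**Figure D5:**
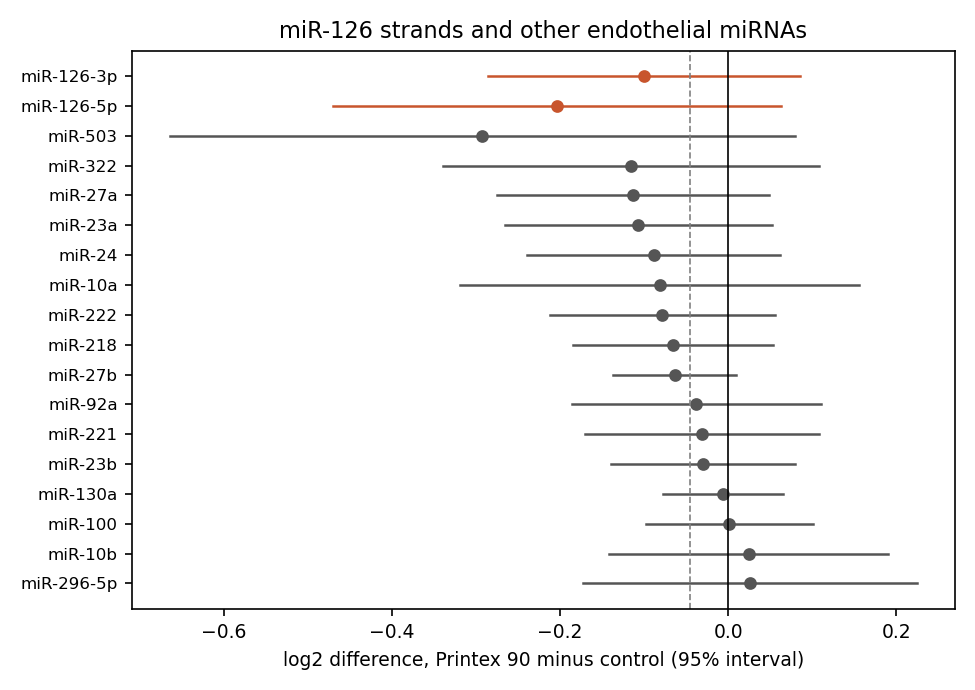
Log2 difference (Printex 90 minus control, with its 95% limma interval) of the miR-126 strands (orange) and the 16 other endothelial miRNAs (grey). The solid line is 0 and the dashed line the median of all tested miRNAs, -0.05, and every interval includes 0.

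Markers of the other cell types in lung were measured on the same arrays. The miR-200 family of epithelium was detected on all arrays and was above 0 in 5 of 5 members (median log2 difference 0.06), with a mean log2 level of 0.56 to 0.82 after Printex 90 and 0.50 to 0.66 in controls. The red blood cell miRNAs miR-144, miR-451 and miR-486 were below 0 in 3 of 3 (median -0.25), with a mean log2 level of 0.99 to 1.37 after Printex 90 and 0.88 to 2.09 in controls. miR-143 and miR-145 of smooth muscle were below 0 in 2 of 2 (median -0.08), and 3 of 4 leukocyte miRNAs were (median -0.04). The striated muscle miRNAs were below 0 in 3 of 3 (median -0.75), with a mean log2 level of -3.62 to -0.13 after Printex 90 and -3.31 to -0.82 in controls. 0 of these 17 markers passed the test, and the groups were apart in 0 of them. Of all 268 tested miRNAs, 85 were above 0, 65.7% were below 0 and 0% passed. The groups were apart in 0.373% of all tested miRNAs with Printex 90 lower and in 1.12% with Printex 90 higher. All 17 were detected on all 8 arrays. Their part in the values of miR-126 was not tested.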

How the data were processed

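Lung RNA of 4 vehicle control and 4 Printex 90 samples was measured on Agilent miRNA arrays, and the sample titles gave each array's group and number. Per the file headers, the deposited intensity of each spot was read with Agilent Feature Extraction 10.7.3.1 (grid design 021828), which subtracted background within each array. Kits were used to isolate small-RNA-enriched total RNA and to label it, per the labels' protocols. The authors' deposited table holds log2 values made by steps not given in the sources used here. Quantile normalizing the log2 median signals of all spots and taking each miRNA's median recovered them to within 5.0e-07.

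Spots of controls and spots with outlier flags (2.25% to 2.76% per array) were left out. Signals were averaged over each probe's spots, then added up over the probes of a strand. A miRNA was detected where at least 50% of the kept spots of a probe were well above background. Scaled values were floored at 0.0388 before log2, which touched neither strand. limma 3.58.1 (R 4.3.3, lmFit and eBayes, 2-sided, Benjamini-Hochberg over the 268 tested miRNAs) gave the differences, and single values per array were tested with exact permutation tests. The limma step was tested on simulated data. The design named a mean spot signal for normexp, and the median signal was used, as that is the column the files carry. The members, the marker lists and the tests were chosen with earlier results of these data known. The named miRNAs were the strands, the 5 most correlated with each, the endothelial list, and the 2 steadiest, the 2 least steady and the 5 nearest pairs by signal. The pairs miR-744, miR-7a and miR-324, and miR-135b, miR-146b and miR-21, were named after their values were seen. The number of arrays limits the precision.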

Additional observations from a re-analysis of the deposited data

Results flagged for a closer look

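In 46 groups of 4 arrays, Dixon's test compared the distance between an extreme array and its nearest neighbour with the range of that group. It passed the 95% limit in 5 of them, and chance alone does so in about 1 of 20 groups, or 2.3 here. Vehicle control replicate 2 was low for miR-126-3p (log2 relative signal 5.20, next 5.38, share 0.893). The same array was low for both probes of that strand, A_54_P2285 (3.96, next 4.15, share 0.895) and A_54_P2286 (4.40, next 4.57, share 0.850), which are parts of the same sum and no separate evidence. The 5p probe A_54_P4367 was low on Printex 90 replicate 4 (-4.57, next -4.21, share 0.936). miR-100 was low on vehicle control replicate 3 (-0.86, next -0.75, share 0.875).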

How the results depend on the processing

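Over 22 alternatives each, the log2 differences of miR-126-3p and miR-126-5p failed the limma threshold every time, and both stayed below 0 in all but those named here. In the authors' deposited table they were 0.069 and 0.076, the strand ratio difference was -0.0064 and the strand correlation -0.0861 (exact permutation p = 0.857). With quantile normalization of the summed signals miR-126-3p held 1 rank on all arrays, so its difference was 0 and the strand correlation could not be computed. Leaving out each array in turn gave -0.15 to -0.05 for miR-126-3p, -0.30 to -0.13 for miR-126-5p, 0.058 to 0.18 for the strand ratio, 0.617 to 0.914 for the strand correlation and -0.08 to -0.03 for the median of the endothelial list. The correlation was 0.540 and 0.529 with A_54_P4367 as the 5p probe and either 3p probe, and its unadjusted exact permutation p no longer passed (0.182 and 0.184). Single probes and group centring were chosen after seeing the data. The miR-126-3p difference was -0.048 with the 75th percentile over all mouse miRNAs and -0.063 with normexp, and the miR-126-5p difference was -0.13 with array weights. The endothelial median was -0.013 with the 75th percentile over all mouse miRNAs, -0.14 without scaling between arrays and 0.0094 with normexp, where the median of all tested miRNAs was 0.0, -0.12 and 0.036. The list lay below all tested miRNAs by 0.019 in the values reported. Its difference from them was -0.013, -0.019 and -0.027 under these settings. The gap was widest with all 611 mouse miRNAs kept (-0.065), when probes were averaged after log2 (-0.052) and without vehicle control replicate 3 (-0.040). The list lay above all tested miRNAs without Printex 90 replicate 1 (0.0023), without vehicle control replicate 4 (0.0067) and with array weights (0.0059). Deviations of same-numbered arrays correlated between -0.47 and 0.44, above 0.1 in 1 of 4 pairs. So few values cannot decide whether replicate numbers pair the samples, and the labels do not say. The replicate number was also the slide column in both groups. With the replicate block the differences were -0.10 and -0.20 (limma adjusted p = 0.777 and 0.744), the ratio gave an exact sign-flip p of 0.375 (smallest possible 0.125), and no call changed. Where the cause is not part of an alternative's construction, it was not tested.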

Other observations

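The way the authors' deposited table summarises spots touches more miRNAs than the miR-126 strands. Of 209 tested miRNAs with 2 probes of equal spot number, 120 (57.4%) had every spot of 1 probe dimmer than every spot of the other on all 8 arrays. For each of these the median over spots is the midpoint of 2 spots, as for both miR-126 strands.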
